A study of Mus musculus with 12 samples.

Results

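Macrophage transcripts in fibroblast cultures are described here through 10 genes: Lyz2, Ctss, C1qa, C1qb, Laptm5, Fcer1g, Tyrobp, Mpeg1, Csf1r and Adgre1. The genes were chosen by their higher signal in kinase-dead cultures, so their difference between genotypes is given as a description, without a test. Every probe set annotated with 1 of these symbols alone was taken, which gave 18 probe sets for 10 of the 18193 genes so named on the array. A probe set is a group of short oligonucleotides that together report 1 transcript; Lyz2, Ctss, C1qa, Fcer1g, Tyrobp, Mpeg1 and Adgre1 had 1 each, C1qb and Csf1r had 3 each, and Laptm5 had 5.

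RNA of mouse embryonic fibroblasts was measured on 12 Affymetrix arrays of 45101 probe sets, in 6 groups of 2 cultures. Wild-type cells and cells with an IRAK4 that lacks kinase activity ("IRAK4 kinase dead") were kept unstimulated for 4 h, or received mouse IL-1b at 1 ng/ml and were taken after 1 h or 4 h. IL-1b is an inflammatory cytokine whose receptor signals through the kinase IRAK4. The 4 h unstimulated cultures served as the control for both times, so the responses at 1 h and 4 h within a genotype share their control arrays. All cultures were kept in the same serum-containing medium without a listed macrophage growth factor. The study calls the 2 cultures of a group biological replicates; the number of embryos behind them, their strain and whether wild-type and kinase-dead embryos were littermates are not stated in the labels. Genotype therefore cannot be told apart from embryo or culture preparation, and p-values measure only the spread between these cultures.

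Macrophages are phagocytes of the innate immune system that engulf and digest microbes and dying cells. They depend on the growth factor CSF1, received by the receptor tyrosine kinase Csf1r, and many of their surface receptors signal through small adaptor proteins that carry tyrosine activation motifs. Tissue macrophages are seeded in the embryo, so a preparation of embryonic tissue can hold them, and they are a main source of the complement protein C1q.

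Signals are the deposited MAS5 values, on a linear scale on which the median of all values was 25.5. That median is used below as the mark of a low signal. Wild-type medians lay under it in 13 of the 18 probe sets, so the wild-type side of most ratios rests on low signals. Differences are on the scale log2(signal + 8), which understates changes of low signals. Levels are not compared between probe sets, which differ in how strongly they bind.

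Of the proteins that digest or attack microbes, Lyz2 encodes the lysozyme of macrophages, which cuts bacterial cell walls. Its wild-type signals were 98.8 and 97.4 unstimulated, 120 and 128.3 at 1 h, and 114.4 and 96.7 at 4 h. In kinase-dead cultures they were 297.1 and 268.1 unstimulated, 313 and 319.1 at 1 h, and 259.7 and 230.6 at 4 h. The genotypes did not overlap: all 6 kinase-dead arrays were above all 6 wild-type arrays, and the ratio of the means was 2.57. Across all probe sets of the array, taken without a filter, 3.06% separated in this direction; since the genes were chosen for this direction, nothing is read from their own count.

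Ctss encodes cathepsin S, a lysosomal protease that prepares antigens for MHC class II. Wild-type signals were 48.3 and 56.1 unstimulated, 44.8 and 54.6 at 1 h, and 50.6 and 51.3 at 4 h. Kinase-dead signals were 200.1 and 219.3 unstimulated, 201.5 and 286.1 at 1 h, and 222.6 and 286.4 at 4 h. Ctss separated by genotype with a ratio of means of 4.63, and its highest kinase-dead values were replicate 2 at each IL-1b time. Mpeg1, which encodes the pore-forming perforin-2 of phagocytic vesicles, was near the bottom of the scale in wild type, at 5 and 1.5 unstimulated, 1.5 and 9.4 at 1 h, and 13.6 and 20.4 at 4 h. Its kinase-dead signals were 33.6 and 55.3, 47.9 and 39.8, and 46.1 and 31.1 in the same order. These again did not overlap, with all 6 wild-type values under 25.5.

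Lyz1 encodes a near-identical lysozyme, is no member of the 10 and lies beside Lyz2 on chromosome 10; cross-binding between their probe sets was not tested. Its probe set 1436996_x_at read 147 to 203.9 in wild type and 549.5 to 675.1 in kinase-dead cultures (log2 difference 1.66 ± 0.09, SE). Its probe set 1439426_x_at read 98.3 to 190.5 and 445.5 to 582, and the third, 1450822_at, stayed between 1 and 24.5 on every array. Lyz1 was chosen for this comparison after its neighbour's values were seen, so its difference is given as a description, without a test.

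**Figure D1:**
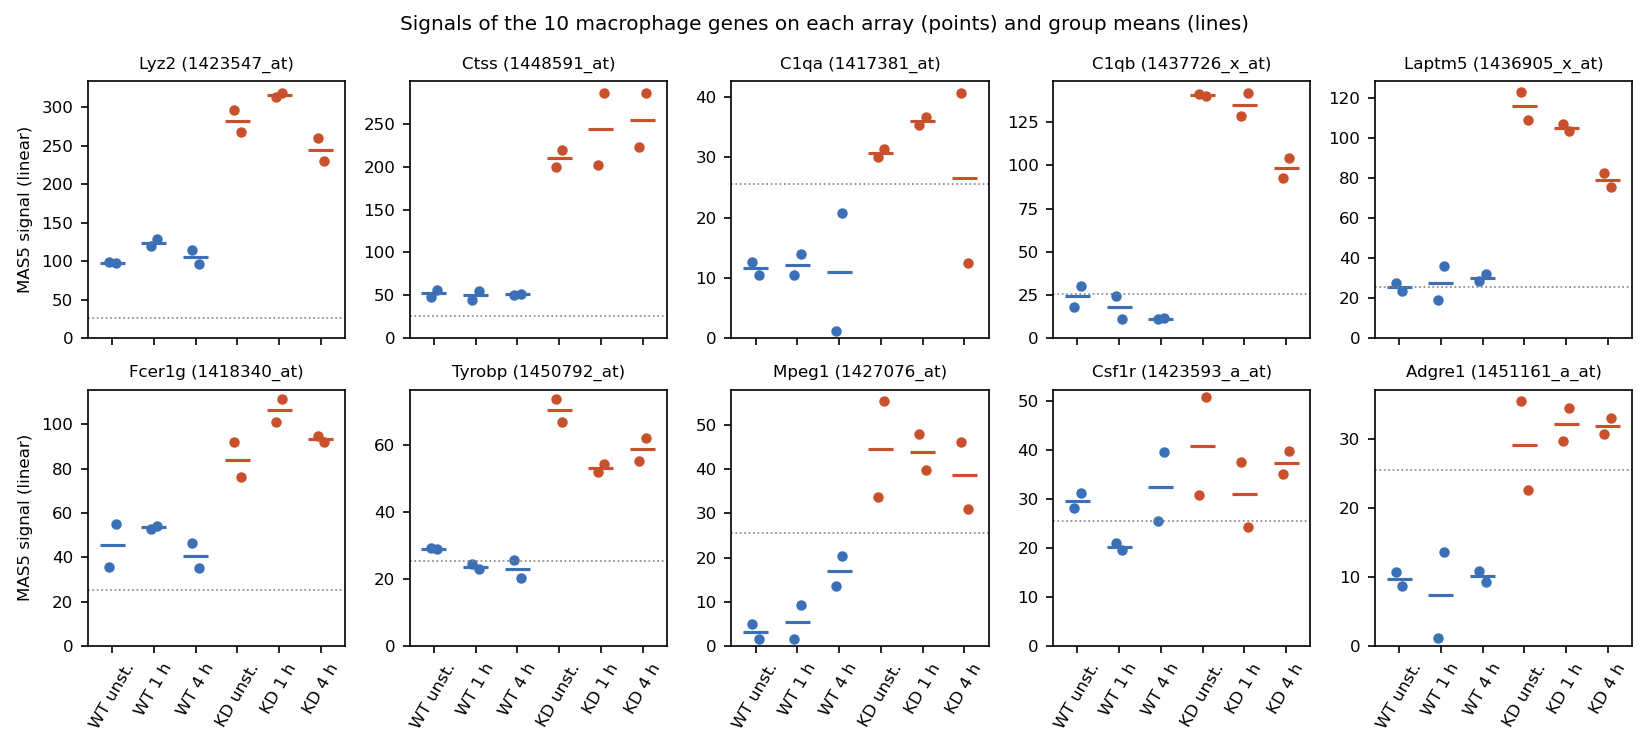
MAS5 signal (linear axis) of each of the 10 genes, with 1 probe set a gene, that with the highest mean signal, in the 6 groups (WT, wild type, blue; KD, kinase dead, orange; unst., unstimulated). Points are single arrays, lines are means of 2 arrays, and the dotted line marks 25.5, the median of all values; for 8 of the 10 genes every kinase-dead point lies above every wild-type point, and C1qa and Csf1r overlap.

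Of the recognition proteins, C1qa and C1qb encode chains of C1q, which starts the classical complement pathway by binding antibody complexes and dying cells. C1qa signals were 12.7 and 10.5 unstimulated, 10.5 and 13.9 at 1 h, and 1.2 and 20.7 at 4 h in wild type. In kinase-dead cultures they were 30 and 31.4, 35.3 and 36.6, and 40.6 and 12.4. The genotypes overlapped in C1qa through 1 array, kinase-dead replicate 2 at 4 h, which lay within the wild-type range.

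C1qb was read by 3 probe sets that all gave higher kinase-dead medians. In 1437726_x_at the wild-type signals were 18.2 and 30.3 unstimulated, 24.3 and 11.3 at 1 h, and 11.1 and 11.5 at 4 h. The kinase-dead signals were 141.2 and 140.4, 128.3 and 142, and 92.4 and 104. There was no overlap, and the ratio of means, 7.01, was the highest among the 11 separating member probe sets, whose ratios began at 2.03. The second, 1434366_x_at, ranged from 6 to 19.9 in wild type and from 66.8 to 120 in kinase-dead cultures, also without overlap. The third, 1417063_at, read 1.1 to 8.5 in wild type and 3.9 to 34 in kinase-dead cultures, with overlap. The suffix _x_at marks probe sets that may also bind other transcripts. C1qc, the remaining C1q chain and no member of the 10, read 0.8 to 2.5 in wild type and 1.1 to 31.6 in kinase-dead cultures and was too low to test.

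Fcer1g and Tyrobp encode the Fc receptor gamma chain and DAP12, the adaptors through which Fc receptors, TREM receptors and others signal. Fcer1g signals were 35.7 and 55.2 unstimulated, 52.9 and 54.2 at 1 h, and 46.5 and 35 at 4 h in wild type, against 92.1 and 76.2, 101.2 and 111.4, and 94.6 and 91.9 in kinase-dead cultures. Tyrobp signals were 29.2 and 28.9, 24.4 and 23.1, and 25.6 and 20.4 in wild type, against 73.9 and 66.8, 52.1 and 54.5, and 55.3 and 62.2. Both adaptors separated by genotype, with ratios of means of 2.03 for Fcer1g and 2.41 for Tyrobp. These ratios were at the lower end of the separating probe sets.

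Csf1r encodes the receptor of CSF1, on which macrophage survival depends, and its 3 probe sets did not give the same picture. In 1419872_at the wild-type signals were 7.9 and 17.7 unstimulated, 2.3 and 1.1 at 1 h, and 22.4 and 10.8 at 4 h, and the kinase-dead signals were 50.1 and 55.7, 34.9 and 47.6, and 35.8 and 42.5, with no overlap. In 1419873_s_at the ranges were 2.5 to 26.5 and 24.5 to 45, which overlapped slightly. In 1423593_a_at they were 19.6 to 39.6 and 24.3 to 50.8, so most of the range was shared and the log2 difference was 0.32. Adgre1, which encodes an adhesion receptor used as a surface marker of mouse macrophages, read 10.7 and 8.7, 1.2 and 13.7, and 10.9 and 9.3 in wild type, against 35.5 and 22.7, 29.8 and 34.6, and 30.8 and 33.1. Adgre1 did not overlap; all its wild-type signals and 1 of its kinase-dead signals were under 25.5.

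Laptm5 encodes a lysosomal membrane protein of blood-derived cells that tunes receptor turnover. Its probe set 1436905_x_at read 27.4 and 23.7 unstimulated, 18.9 and 36.1 at 1 h, and 28.4 and 31.9 at 4 h in wild type, against 122.9 and 109, 106.8 and 103.4, and 82.5 and 75.4 in kinase-dead cultures. A second, 1426025_s_at, read 4.8 to 29.7 and 32.2 to 50, also without overlap. The other 3 did not separate: 1417721_s_at ranged from 1.5 to 21.7 and from 8.6 to 31.1, and 1447742_at and 1459841_x_at never reached 25.5. The choice of probe set moved the Laptm5 log2 difference between 0.07 and 1.60.

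Over all 18 probe sets, the kinase-dead median was above the wild-type median in 18, and the arrays separated completely in 11, which belonged to 9 genes; C1qa was the exception. With 1 probe set a gene, the median log2 difference of the 10 genes was 1.27 unstimulated (range 0.35 to 2.23), 1.40 at 1 h (0.44 to 2.52) and 1.12 at 4 h (0.18 to 2.46). The corresponding medians over all tested probe sets were -0.02, 0.04 and 0.07. Summed over the 10 genes, the signal was 314 to 364 on the wild-type arrays and 960 to 1150 on the kinase-dead arrays, with both kinase-dead 4 h arrays (960 and 967) below the other 4 (1040 to 1150). In RNA from whole cultures, fewer cells of a type and less RNA per cell cannot be told apart.

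**Figure D2:**
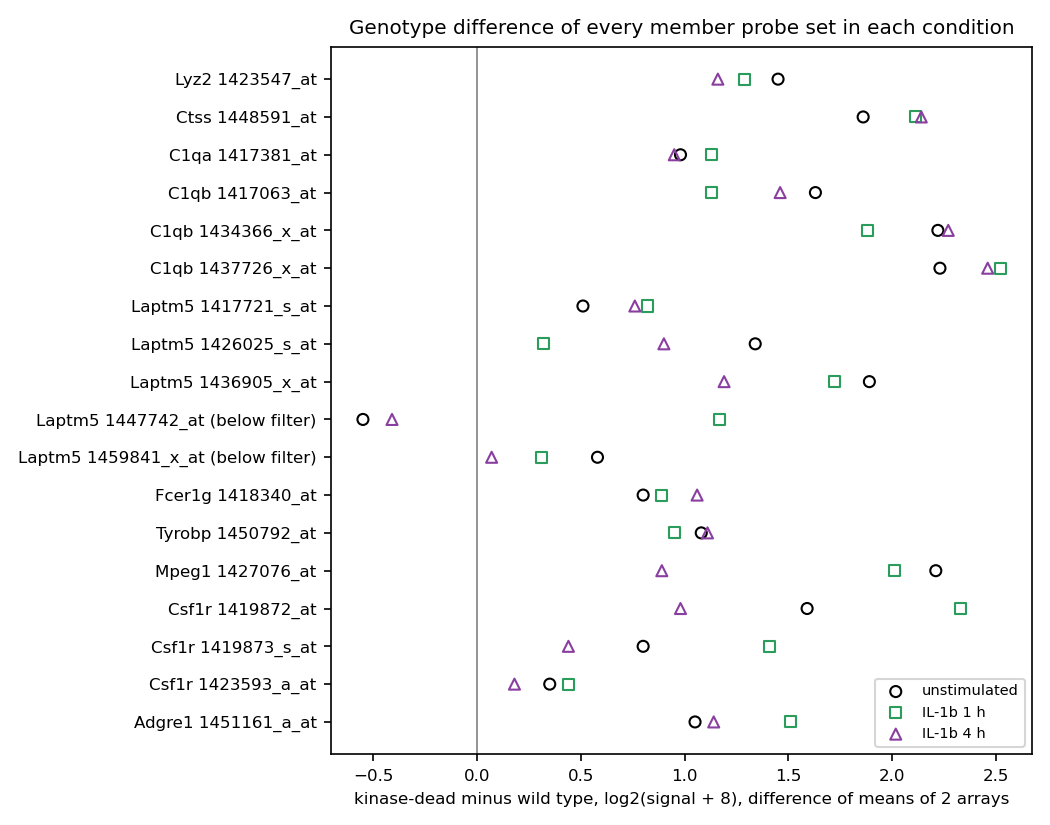
Kinase-dead minus wild-type difference on the log2(signal + 8) scale for all 18 member probe sets, as the difference of means of 2 arrays in each condition (circles, unstimulated; squares, 1 h; triangles, 4 h). All points lie right of 0 except those of Laptm5 1447742_at, a probe set below the filter, unstimulated and at 4 h; Csf1r and Laptm5 show how far probe sets of 1 gene can differ.

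Array medians ran from 23 to 28.3, and replicate arrays correlated at 0.967 to 0.974 against 0.941 to 0.973 for arrays of different groups. The ratio of the 3′ actin control to the 5′ one, which rises as RNA degrades, was 2.14 to 2.68 in wild type and 2.35 to 2.86 in kinase-dead cultures, highest in the unstimulated kinase-dead arrays; its part in the genotype difference was not tested. The wild-type arrays include 1 unstimulated array whose title states no genotype; with it or any other single array left out, the differences of the 16 tested member probe sets kept their sign, for example 1.96 to 2.12 for Ctss and 1.26 to 1.34 for Lyz2.

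The response to IL-1b was not used in choosing the genes, so it was tested. A probe set entered the tests if it reached 25.5 on at least 2 arrays, which 27086 probe sets did, 16 of the 18 member probe sets among them; 9 of the 16 needed kinase-dead arrays to pass, with fewer than 2 wild-type arrays at 25.5. A probe set was called at an adjusted p under 0.05. In kinase-dead cultures, 0 of 16 member probe sets were called at 1 h by limma (0 at an unadjusted p under 0.05), where 2.35% of all tested probe sets were called. At 4 h, 0 of 16 were called (1 at an unadjusted p under 0.05), where the share over all was 0.406%. The median log2 response of the member probe sets was -0.10 at 1 h and -0.18 at 4 h, against 0 and 0.01 over all probe sets. Beside shares this low, a count of 0 in 16 is near the background and is no result about the members.

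The width of the intervals differed among the members. For Lyz2 the 4 h response in kinase-dead cultures was -0.20 (95% interval -0.51 to 0.11), and for Ctss it was 0.26 (-0.15 to 0.67). Fcer1g gave 0.14 (-0.33 to 0.61) and Tyrobp -0.23 with an SE of 0.25. For C1qa the response was -0.30 and the interval ran from -1.37 to 0.77, which holds both falls and rises up to those sizes. The lowest responses were those of C1qb 1434366_x_at, -0.61 (-1.17 to -0.06), of Laptm5 1436905_x_at, -0.51 (-1.03 to 0.01), and of C1qb 1437726_x_at, -0.49 (-1.06 to 0.08). None of these passed after adjustment (adjusted p = 0.371, 0.439 and 0.512, limma with Benjamini-Hochberg adjustment), although in each of the 3 probe sets both 4 h arrays lay below both unstimulated arrays.

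In wild-type cultures, 0 of 16 member probe sets were called at 1 h (3 at an unadjusted p under 0.05 in limma), where 6.65% of all tested probe sets were called. At 4 h, 0 of 16 were called (3 at an unadjusted p under 0.05), beside 7.52% of all. The median member response was -0.09 at 1 h and 0.04 at 4 h, against -0.06 and -0.08 over all probe sets. Lyz2 at 1 h was 0.32 (interval 0.01 to 0.63; adjusted p = 0.236, limma), with both 1 h arrays above both unstimulated arrays. Mpeg1 at 4 h was 1.16 (0.28 to 2.03; adjusted p = 0.107, limma), a difference made of signals under 25.5. C1qb at 4 h was -0.67 in 1434366_x_at and -0.71 in 1437726_x_at (adjusted p = 0.143 and 0.127, limma), values close in size to those of kinase-dead cultures, while 1417063_at gave 0.22.

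Between 4 h and 1 h, 1 of 16 member probe sets was called in wild type, where 14.7% of all tested probe sets were. It was Csf1r 1419872_at, higher at 4 h by 1.30 ± 0.38 (SE, 2 arrays a group; adjusted p = 0.0279, limma), from 2.3 and 1.1 at 1 h to 22.4 and 10.8 at 4 h. All 4 signals lay under 25.5, and the other Csf1r probe sets gave 0.59 and 0.50 without passing (adjusted p = 0.447 and 0.341). The call was lost without wild-type 1 h replicate 1 (adjusted p = 0.0721), without 1 h replicate 2 (0.118) and without 4 h replicate 1 (0.2), and also with a pseudocount of 32 (0.093), with no filter (0.0567) and with the compared groups fitted alone (0.178). In kinase-dead cultures, 0 of 16 were called between 4 h and 1 h by limma (1 at an unadjusted p under 0.05, Lyz2 at -0.36), where 2.7% of all were.

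**Figure D3:**
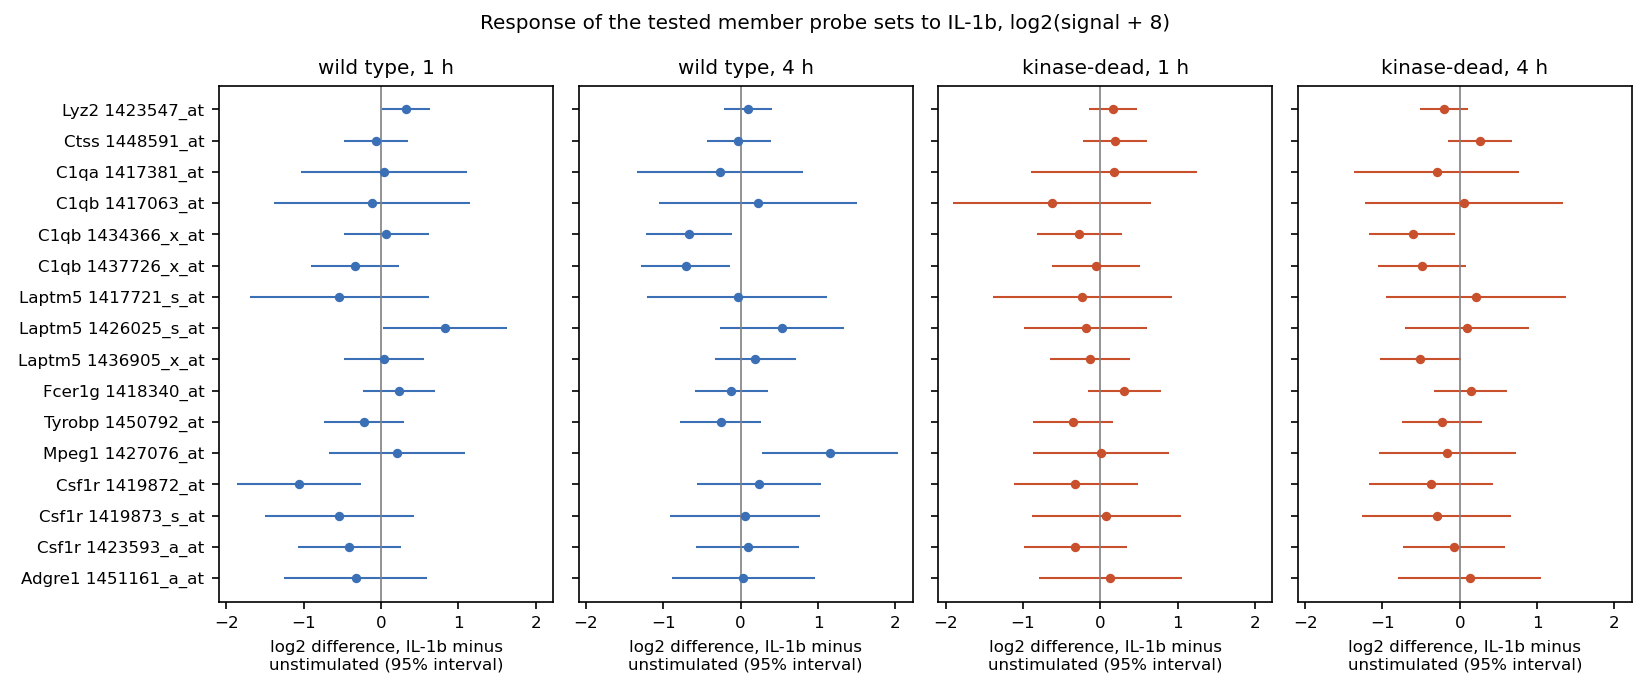
Response of the 16 tested member probe sets to IL-1b against the unstimulated cultures of the same genotype, on the log2(signal + 8) scale, with 95% intervals from the fit to all 12 arrays (blue, wild type; orange, kinase dead). Most intervals cross 0, no response was called after adjustment, and the probe sets of C1qa, C1qb 1417063_at and Laptm5 1417721_s_at have the widest intervals.

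The difference between the genotypes' responses was tested directly. At 1 h, 0 of 16 member probe sets differed by limma (0 at an unadjusted p under 0.05), beside 0.366% of all tested probe sets. At 4 h, 0 of 16 differed (1 at an unadjusted p under 0.05), beside 1.73% of all. The 1 was Mpeg1, whose response was lower in kinase-dead cultures by -1.31 (interval -2.56 to -0.07; adjusted p = 0.32, limma). For Lyz2 the difference at 4 h was -0.29 (-0.73 to 0.14) and for Ctss 0.29 (-0.30 to 0.87). For C1qa the interval, -1.54 to 1.48, was wider.

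Other genes of macrophages were examined through a list of 40, drawn up with earlier results of these data known, so that its counts are no independent evidence of a direction. Its summed signal was 738 to 902 on the wild-type arrays and 1190 to 1550 on the kinase-dead arrays. Over the whole list, 33 of 40 genes had a kinase-dead median above the wild-type median. The same share over all genes was not computed, so nothing is read from this count. Of the 40, 8 separated completely with the kinase-dead arrays above and 0 with them below. Across all probe sets without a filter, 3.06% separated with the kinase-dead arrays above. That share counts every probe set, whereas the list took the brightest probe set of each gene, among tested probe sets where there were any. The count and the share are therefore not like for like. Medians under 25.5 were found for 35 of the 40 genes in wild type and for 27 in kinase-dead cultures. Cd14, Itgam and Cx3cr1, a coreceptor for bacterial lipopolysaccharide, an integrin chain and a chemokine receptor of the lineage, were among the genes too low to test in either genotype.

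The 8 separating genes were led by Lcp1, an actin-bundling protein of blood cells, at 41.4 to 75.1 in wild type and 144.2 to 234.2 in kinase-dead cultures (log2 difference 1.58 ± 0.13, SE, adjusted p = 7.01e-08, limma). Ptprc, the leukocyte phosphatase CD45, read 2.6 to 18.8 and 36.7 to 55.1 (1.5 ± 0.22). Ms4a7 and Ms4a6d, membrane proteins of the lineage, differed by 1.29 ± 0.18 and 1.03 ± 0.16. Coro1a, an actin regulator of leukocytes, differed by 1.25 ± 0.15, and Cd52, Aif1 and Cybb, the last a subunit of the phagocyte oxidase, by 1.23, 1.05 and 0.74. Genes of the leukocyte cytoskeleton and cell surface were among these. Of the 40 genes 19 could be tested, and 11 of the 19 needed kinase-dead arrays to pass the filter, which favours calls of higher signal. Among these 11, 6 were called higher (Ptprc, Cybb, Aif1, Ms4a6d, Plek and Cd52), and no support is drawn from them. Of the other 8, whose wild-type arrays alone met the filter, 4 were called higher (Lcp1, Ms4a7, Coro1a and Mertk) and 1 lower (Evi2a, by -1.23). Over all tested genes outside the 10 members, 17.4% were called higher and 13% lower, shares that the filtered list cannot be set against. Cd68, a lysosomal glycoprotein of macrophages, and Cd53, a leukocyte tetraspanin, gave 0.26 and 0.06 and were not called (adjusted p = 0.377 and 0.651, limma). At 4 h of IL-1b, limma called 0 of the 19 in wild type (2 at an unadjusted p under 0.05) and 0 in kinase-dead cultures (0 at an unadjusted p under 0.05).

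Around the adaptors Fcer1g and Tyrobp, a list of immunoreceptors and kinases that signal with them held 15 genes on the array. Of 6 tested, 0 were called in either direction by limma (0 at an unadjusted p under 0.05), with a median of 0.02, and the summed signal was 164 to 278 in wild type and 183 to 257 in kinase-dead cultures. Fcgr3, a receptor that needs the Fcer1g chain, gave 0.12 and Inpp5d, a phosphatase that restrains these receptors, -0.07. Syk, the kinase that the adaptors recruit, was below the filter, yet read 3.4 to 17.6 in wild type and 18.1 to 23.7 in kinase-dead cultures with no overlap. Trem2, a partner of Tyrobp, did not exceed 15.8 on any array.

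Around Csf1r, the growth factor Csf1 itself was lower in kinase-dead cultures, at 247.3 to 611.1 against 771.4 to 2588.4 (log2 difference -1.68 ± 0.07, SE, adjusted p = 7.92e-12, limma). Csf1 rose at 4 h of IL-1b by 1.63 in wild type (adjusted p = 1.23e-07, limma) and by 1.00 in kinase-dead cultures (adjusted p = 0.000442, limma). The ligand was lower in kinase-dead cultures, while each of the 3 probe sets of its receptor had the higher median there. Csf2, another myeloid growth factor, was lower by -2.12 ± 0.26 over all conditions. Unstimulated, the Csf2 difference was -0.81 and was not called (adjusted p = 0.295, limma). At 4 h of IL-1b, Csf2 rose by 3.68 in wild type (adjusted p = 3.47e-05, limma). The kinase-dead rise of 1.04 was not called, and the response difference was -2.64 (adjusted p = 0.043, limma). Spi1, which encodes the myeloid transcription factor PU.1, read 7 to 18.8 in wild type and 20.5 to 35.7 in kinase-dead cultures, without overlap; all its wild-type signals were under 25.5, so it passed the filter through kinase-dead arrays and its difference is given as a description. Of the other 5 tested genes of this list, 0 were called higher and 2 were lower, Csf1 and Csf2. The shares over all tested genes outside the members were 17.4% higher and 13% lower.

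Because PU.1 is known to act at many macrophage promoters, the promoters of the members were searched for its core motif, GAGGAAG, on both strands, with overlap allowed. The search covered 300 bases of GRCm38.p6, 250 before to 50 after the RefSeq start. It was made for 6 of the 10 genes (Fcer1g, Ctss, Laptm5, C1qb, Lyz2 and Mpeg1). The promoters of C1qa, Tyrobp, Csf1r and Adgre1 were left out of the search, so nothing is said of them. The 6 searched genes do not stand for the 10, so no enrichment is read from the count of matches. The motif was found in 2 of the 6, against 13.6% of all 32851 promoters, and in both it reads on the strand opposite the gene. Below, the stretch that ends at or surrounds the match is given 5′ to 3′ on the gene's strand, with the match (the reverse complement of the motif) in capitals, for Ctss at chr3:95526686-95526791 and for Laptm5 at chr4:130913216-130913315, both on the plus strand.
Ctss: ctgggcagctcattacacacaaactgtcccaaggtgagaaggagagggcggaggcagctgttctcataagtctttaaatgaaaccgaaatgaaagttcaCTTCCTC
Laptm5: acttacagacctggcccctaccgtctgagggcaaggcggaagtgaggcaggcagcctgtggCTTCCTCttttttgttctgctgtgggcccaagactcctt
A match is a description of these letters and no evidence of binding, and the 4 promoters without it say nothing about the factor.

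Around C1qa and C1qb, a list of other complement genes had 6 tested members, of which 5 had wild-type arrays that met the filter. Among these 5, C5ar1, a receptor for a complement fragment, was higher in kinase-dead cultures, and 0 were lower. Over all tested genes outside the members, 17.4% were called higher and 13% lower. C5ar1 read 23.5 to 41.6 in wild type and 49.9 to 103 in kinase-dead cultures (1.13 ± 0.16, SE, adjusted p = 3.22e-05, limma). C3ar1, another such receptor, read 18.1 to 21 in wild type and 42.3 to 89.5 in kinase-dead cultures; it passed the filter through kinase-dead arrays, so its difference of 1.40 is a description. C1ra and C1s1, the proteases that join C1q in the C1 complex, gave -0.57 and -0.30 and were not called (adjusted p = 0.129 and 0.157, limma).

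Around Ctss, 16 genes of lysosomes found in all cells were tested. Of these 8 were higher in kinase-dead cultures and 0 lower, with a median of 0.21. Over all tested genes outside the members, 17.4% were called higher and 13% lower. The separating ones were Neu1, a sialidase, by 0.98 ± 0.20, Hexa, a hexosaminidase subunit, by 0.67 ± 0.07, Ctsl, cathepsin L, by 0.48 ± 0.05 and Ctsa, a protective carboxypeptidase, by 0.36 ± 0.06. The membrane proteins Lamp1 and Lamp2 gave 0.02 and -0.01.

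None of the 5 testable cytokines of activated macrophages was higher in kinase-dead cultures over all conditions. In limma 3 of the 5 were lower (5 at an unadjusted p under 0.05), beside 13% of all tested genes outside the members. These were Il1rn, the IL-1 receptor antagonist, by -0.87, Il18 by -0.56 and Cxcl16 by -0.53. Unstimulated, Il1rn differed by -0.98 (adjusted p = 0.000113, limma). The unstimulated differences of Il18 and Cxcl16 were -0.29 and -0.02 and were not called (adjusted p = 0.428 and 0.97, limma). Il1b, Ccl3, Ccl4 and Il10 were too low to test in either genotype, so for these no direction can be given. In wild type Cxcl16 rose by 2.31 at 4 h (adjusted p = 6.87e-06, limma), and in kinase-dead cultures limma called 0 of the 5 at that time (2 at an unadjusted p under 0.05).

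**Figure D4:**
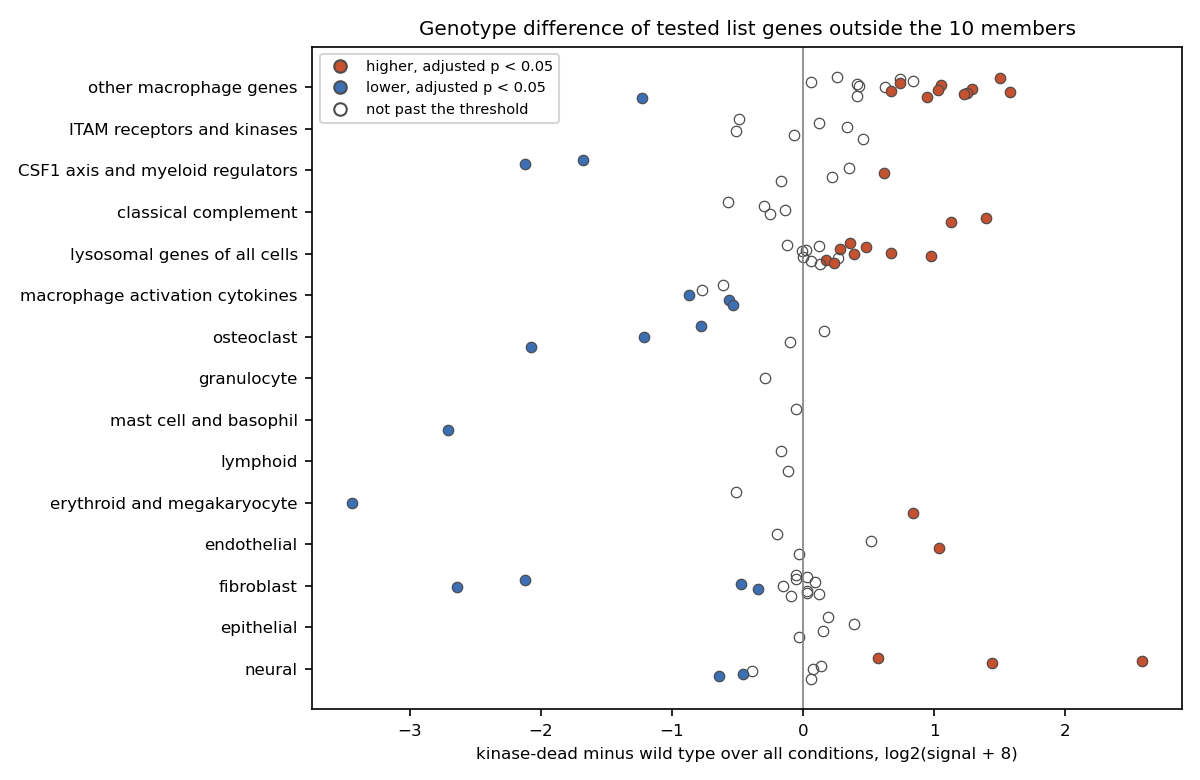
Kinase-dead minus wild-type difference over all conditions (log2(signal + 8) scale) of each tested gene of the 15 lists, members excluded; filled points passed an adjusted p of 0.05 in limma (orange, higher; blue, lower) and open points did not. Of the 19 macrophage genes 10 are called higher, but 11 of the 19 needed kinase-dead arrays to pass the filter. None of the 13 fibroblast genes did, and 4 of these 13 are called lower, beside 13% of all tested genes outside the 10 members.

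Markers of other cell types were read beside the members. The fibroblast list was present in both genotypes, with a summed signal of 33700 to 39300 in wild type and 34600 to 37600 in kinase-dead cultures; Col1a1, Col1a2 and Vim differed by -0.05, 0.03 and 0.03, whereas Lum, Pdgfra, Thy1 and Postn were called lower by -2.64, -2.12, -0.47 and -0.34. Of the osteoclast genes, a lineage that also needs Csf1r, 0 of 5 tested were higher and 3 were lower (Mmp9, Nfatc1 and Ctsk). The shares over all tested genes outside the members were 17.4% higher and 13% lower. The osteoclast sums were 820 to 2170 in wild type and 522 to 840 in kinase-dead cultures. Atp6v0d2, a proton pump subunit of osteoclasts, was below the filter and separated the other way, at 1.6 to 12.8 in wild type and 16 to 26 in kinase-dead cultures. The granulocyte list summed to 66.1 to 119 in wild type and 59.1 to 107 in kinase-dead cultures, and the lymphoid list to 112 to 169 and 78.1 to 117. The medians of all 11 granulocyte and all 15 lymphoid genes were under 25.5 in both genotypes, so these are sums of low signals, with Cd3e at most 1.9.

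Among the remaining lists, the mast cell and basophil sum was 716 to 988 in wild type and 581 to 633 in kinase-dead cultures, with Mcpt8, a basophil protease, lower by -2.71. The erythroid and megakaryocyte sum was 178 to 305 and 93.5 to 196, with the platelet chemokine Ppbp lower by -3.44 and Gp1bb, a platelet glycoprotein chain, higher by 0.84. The endothelial sum was 146 to 265 and 191 to 235, with Emcn, a surface sialomucin that passed the filter through kinase-dead arrays, at 1.6 to 15.8 and 17.8 to 33.3, and the epithelial sum was 95.4 to 202 and 136 to 191 with 0 of 4 called by limma (0 at an unadjusted p under 0.05). The neural sum was 633 to 809 in wild type and 886 to 1060 in kinase-dead cultures. There Fabp7, a fatty acid carrier of glia, was higher by 2.59 ± 0.11, the transcription factor Sox2 by 1.44 and the filament protein Nes by 0.57, while Map2 and Slc1a3 were lower by -0.64 and -0.46. Fabp7, Sox2 and Nes therefore differed in the same direction as the macrophage genes, and the part of other cell types in the members' difference was not tested.

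To see which genes outside the 10 have the most similar profile, each gene's log2(signal + 8) values were centred on their mean over 12 arrays and compared with the mean profile of the members by root mean square distance. That mean profile lay between -0.85 and -0.56 on the wild-type arrays and between 0.52 and 0.75 on the kinase-dead arrays. Of 12446 genes, the nearest were Parm1 (distance 0.0937), Ctsh, the lysosomal protease cathepsin H (0.0962), the chemokine Cxcl12 (0.139), Fabp3, Lrp4, Mtss1, Ctla2a, Igfbp2, Mmp16 and Erbb3 (0.167). Ctsh read 147.3 to 190.8 in wild type and 395 to 458.6 in kinase-dead cultures. None of these 10 was on the list of macrophage genes, whose nearest gene, Lcp1, stood at rank 43; C3ar1 stood at rank 27. Distances of the members to their own mean ran from 0.162 for Lyz2 to 0.621 for C1qb. After Lyz2 the nearest member was Laptm5, at 0.2, beyond the 0.167 of Erbb3. Most members thus lay farther from the mean profile than these 10 genes, so a later rank says nothing about cell type. The mean profile of the members was a step between the genotypes, a shape that the nearest genes share.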

How the data were processed

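The deposited values are linear intensities made by the authors with MAS5, per the submitters' processing notes, with 1 signal for each probe set on an array; version and settings are not stated there. Each array has a mean of 150 after trimming 2% at each end. Per the labels, RNA was labelled with the NuGEN Ovation method. Samples were grouped by title; 1 unstimulated array whose title lacks the genotype was placed in wild type because the design gives 6 arrays to each genotype. Of 45101 probe sets, 64 are controls, 34945 carry 1 symbol (34741 matched RefSeq, GRCm38.p6), 932 several and 9160 none listed.

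Intensities were analysed as log2(signal + 8), 8 being near the 25th percentile of 7.9, with no further normalization. Probe sets with a signal of 25.5 or more (the overall median) on 2 or more of 12 arrays were fitted with limma 3.58.1 in R 4.3.3 (6 group means, moderated variance with trend, 6 residual degrees of freedom, two-sided, Benjamini-Hochberg over 27086 probe sets). The fit was tested on simulated data. Precision is limited by the number of arrays.

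The 10 genes and the 15 marker lists were chosen with earlier results of these data known. Named were all members; of each list, up to 8 (macrophage lists) or 4 (other lists) called genes without overlap, by size of the genotype difference, or the 3 brightest; and the 10 nearest profiles. Other names, among them the members of a list that stayed low and called genes whose arrays overlap, were chosen after their values were seen. Alternatives changed the pseudocount, filter, normalization, features, variance model, samples in the fit and replicate block, and left out each array.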

Additional observations from a re-analysis of the deposited data

How the results depend on the processing

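Of the member counts, that between 4 h and 1 h in wild type depended on the processing. Against 1 call it was 2 with a pseudocount of 1, with quantile normalization, with median centring and with no variance trend, where C1qb 1434366_x_at joined Csf1r 1419872_at (adjusted p = 0.0281 to 0.0483, limma). It was 0 with a pseudocount of 32, with no filter, with a stricter filter of 100 (6 member probe sets tested), with 1 probe set a gene (10 tested), and with only the groups compared, and 0 to 1 with an array left out. The wild-type count at 1 h became 1 with a pseudocount of 1 (Csf1r 1419872_at, adjusted p = 0.0261, limma). The other 6 member counts were 0 under each alternative. The median genotype difference of the 10 genes, 1.27, was 1.68 with a pseudocount of 1, 0.79 with 32, and 1.60 with the stricter filter, which left 5 genes. The count of other macrophage genes called higher fell from 10 to 1 under that filter, which left 2 of them. A filter on the mean over all arrays, chosen after seeing the data, tested 11 member probe sets with the same counts of calls and called 8 of 12 other macrophage genes higher. No result changed sign.

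The replicate numbers do not pair the arrays: over 15 pairs of groups the correlation of replicate deviations was -0.03 to 0.07. With the replicate block the member counts were 0, except 1 between 4 h and 1 h in wild type (Csf1r 1419872_at, 1.30, adjusted p = 0.0331, limma). In that fit 10 of 19 other macrophage genes were called higher. Because 11 of the 19 needed kinase-dead arrays to pass the filter, no support is drawn from this count.

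Low signal limits these results: 13 of 18 member probe sets had a wild-type median under that of the array, and detection calls were not used here.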
